A study of Arabidopsis thaliana with 18 samples.

Results

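The genes of flavonoid and anthocyanin synthesis were examined in guard cells of Arabidopsis thaliana, the cell pairs that open and close the stomatal pores of the leaf. The 10 genes were chosen by locus: chalcone synthase (CHS, AT5G13930), chalcone isomerase (CHI, AT3G55120), flavanone 3-hydroxylase (F3H, AT3G51240), flavonoid 3'-hydroxylase (F3'H, AT5G07990), flavonol synthase (FLS1, AT5G08640), dihydroflavonol reductase (DFR, AT5G42800), leucoanthocyanidin dioxygenase (LDOX, AT4G22880), an anthocyanin glycosyltransferase (UF3GT, AT5G54060) and the transcription factors PAP1 (AT1G56650) and PAP2 (AT1G66390). Of these 10, 9 were found among the 22746 probe sets of the ATH1 array, 22591 of which carry a single locus identifier, and each of the 9 was read by 1 probe set. LDOX was not listed under its own locus, and it is represented only by a probe set labelled with the neighbouring locus AT4G22870, described beside DFR.

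Leaf strips 1 mm wide were floated for 5 h at 22 °C under 30 µE of light in a bath of KCl (50 mM) and CaCl2 (0.1 mM) with no sugars, with 150 mM mannitol as the osmotic control, or with 150 mM sucrose. Each of the 3 treatments was given to wild type plants of the accession Col-0 and to the null mutant rgs1, which lacks the membrane protein RGS1, a regulator of the heterotrimeric G protein known for its part in sugar responses. Both genotypes were 8 to 10 weeks old, and each sample came from a single plant, from whose freeze-dried strips 50 to 100 guard cell pairs were cut out by hand and their RNA amplified in repeated rounds before hybridisation. This gave 6 groups of 3 arrays, 6 arrays per treatment and 9 per genotype, and values are log2 signals in which a level below 4 is treated as near background. Because the RNA was amplified from few cells, the arrays bear on RNA of the dissected material only, and fewer cells of a type and less RNA per cell cannot be told apart.

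Flavonoids are built from phenylalanine. The general phenylpropanoid enzymes make coumaroyl-CoA, CHS condenses it into a chalcone in the first committed step, and CHI, F3H and F3'H shape the flavonoid core, from which FLS1 draws flavonols while DFR, LDOX and the glycosyltransferases make anthocyanins, the red and purple pigments of the vacuole. In leaves and seedlings, sucrose is a known inducer of the anthocyanin branch, through PAP1 and its relatives, MYB factors that act with bHLH and WD40 partners, and flavonols are the flavonoids best known from guard cells.

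The genotype labels and the cell type were checked first. RGS1 had a log2 signal of 8.17 to 10.37 on the 9 wild type arrays and of 3.14 to 5.75 on the 9 rgs1 arrays. All 10 of 10 guard cell markers, among them the potassium channel KAT1 and the anion channel SLAC1, were at or above 4 on every array, with a summed linear signal of 53993 to 63689 without sugars, 45959 to 72275 with mannitol and 54524 to 72664 with sucrose. All 5 measured of 7 listed mesophyll markers were also at or above 4 on every array, with sums of 18598 to 27122, 12729 to 26165 and 5032 to 19621 in the same order, and the photosynthetic gene GAPA of that list was lower with sucrose than without sugars (log2 difference -1.16, limma adjusted p = 0.047). The 5 phloem markers summed to 21.0 to 24.2 on 17 arrays and to 441 on wild type sucrose replicate 1, where the sucrose transporter SUC2 reached 8.69 and the proton pump AHA3 4.05. The other phloem markers APL, SWEET11 and SWEET12 were near background on that array, at 2.39, 1.78 and 1.84. The 5 epidermis and trichome markers summed to 302 to 1173, 341 to 933 and 283 to 760, with PDF1 near background on every array, and the trichome regulator GL2 at 7.68 on wild type sucrose replicate 1 alone. GL1 of the same list was at 2.76 on that array and was highest, at 5.61, on wild type no-sugar replicate 3. Wild type sucrose replicate 1 was also the highest array for 8 of the 9 flavonoid genes, and the part of these markers in the results was not tested.

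CHS, the entry enzyme, had signals near or just above background in most arrays that had no sucrose and values across a wide range with it. Without sugars its log2 signal was 3.26, 3.35 and 2.17 in wild type and 3.04, 4.90 and 5.46 in rgs1, a mean of 3.70 ± 1.23 (SD, n = 6). With mannitol it was 2.20, 1.67 and 9.04 in wild type and 3.27, 1.5 and 1.49 in rgs1, a mean of 3.20 ± 2.94 (SD, n = 6). With sucrose it was 14.21, 11.82 and 6.30 in wild type and 12.27, 7.47 and 4.05 in rgs1, a mean of 9.35 ± 3.98 (SD, n = 6). The sucrose arrays therefore ran from a barely measurable to a very high level. Wild type mannitol replicate 3, at 9.04, lay above 3 of the 6 sucrose arrays, and the no-sugar and sucrose groups overlapped through rgs1 sucrose replicate 3.

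CHS was 50.4-fold higher with sucrose than without sugars (log2 5.66, SE 1.45, limma adjusted p = 0.0435). Against mannitol the fold was 71.3 (log2 6.16, SE 1.72), and it did not pass the test (limma adjusted p = 0.0729). By the exact permutation test over the 6 against 6 arrays, two-sided, unadjusted p was 0.0216 against mannitol and 0.00866 against no sugars. These are differences of signals that lie near background in the control arrays, so the folds depend on that floor. The call against no sugars was kept only when wild type or rgs1 sucrose replicate 3 was the array left out. It was lost on leaving out any of the other 10 arrays of that comparison, at limma adjusted p from 0.0627 without wild type sucrose replicate 1 to 0.0992. Against mannitol the difference passed the test without wild type mannitol replicate 3 (log2 7.33, limma adjusted p = 0.032) or without rgs1 sucrose replicate 3 (log2 7.22, limma adjusted p = 0.0371).

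CHI, which closes the ring of the chalcone, and F3H, which turns flavanones into dihydroflavonols, were measured well above background in every treatment. CHI had 8.86, 9.86 and 9.32 in wild type and 8.57, 8.26 and 9.90 in rgs1 without sugars, then 6.52, 8.20 and 8.56 and 7.24, 8.55 and 9.06 with mannitol, and 13.29, 9.43 and 7.98 and 9.05, 7.5 and 9.66 with sucrose. The sucrose values of CHI overlapped both other groups, apart from wild type replicate 1 at 13.29. Its mean was 9.48 ± 2.05 with sucrose, 8.02 ± 0.95 with mannitol and 9.13 ± 0.68 without sugars (SD, n = 6 each). Neither difference of CHI with sucrose passed the test, with 2.76-fold against mannitol (limma adjusted p = 0.358) and log2 0.36 against no sugars (limma adjusted p = 0.824).

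F3H had 8.43, 8.37 and 10.04 in wild type and 10.39, 8.19 and 10.24 in rgs1 without sugars. With mannitol it had 6.41, 6.55 and 10.86 in wild type and 9.15, 8.98 and 7.88 in rgs1. With sucrose it had 14.52, 12.43 and 8.99 in wild type and 13.13, 7.84 and 9.05 in rgs1. In 3 of the 6 sucrose arrays F3H was above every array of the other treatments, and in the remaining 3 it was within their range. The difference was 6.43-fold against mannitol (log2 2.69, SE 1.13, limma adjusted p = 0.213) and 1.71 on the log2 scale against no sugars (SE 1.02, limma adjusted p = 0.351), and neither passed the test.

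F3'H adds a hydroxyl group to the B ring and so decides between kaempferol-type and quercetin- or cyanidin-type products. It was the only one of the 9 genes whose sucrose and mannitol arrays did not overlap. The share of all probe sets without such overlap was not counted, so this is a description. By limma 2.36% of all tested probe sets were called in this comparison, and F3'H was not among them. With mannitol it had 7.21, 7.88 and 8.74 in wild type and 7.61, 8.46 and 8.47 in rgs1. On the sucrose arrays it had 13.98, 9.61 and 9.57 in wild type and 11.64, 8.98 and 8.95 in rgs1. The lowest sucrose array, 8.95, was just above the highest mannitol array, 8.74. Without sugars the values were 8.61, 8.65 and 9.72 in wild type and 7.55, 9.36 and 9.50 in rgs1, which overlapped both other groups. The difference between sucrose and mannitol was 5.25-fold (log2 2.39, SE 0.75), with limma adjusted p = 0.104 over all tested probe sets. The exact permutation test, two-sided, gave its smallest possible unadjusted p, 0.00216, one of 27 such tests over the 9 genes and 3 pairs of treatments. Against no sugars F3'H differed by 1.56 on the log2 scale (SE 0.77, limma adjusted p = 0.26).

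FLS1, the branch enzyme to the flavonols, did not share the high sucrose values. Its log2 signal was 9.59, 8.81 and 9.31 in wild type and 7.47, 8.13 and 9.12 in rgs1 with sucrose. Without sugars it was 8.36, 9.49 and 9.67 and then 9.89, 7.60 and 9.68. With mannitol it was 7.0, 7.59 and 7.31 and then 8.24, 8.95 and 8.39. All 18 values thus lay between 7.0 and 9.89 with the 3 treatments overlapping, and wild type sucrose replicate 1 was not the highest array. The mean with sucrose was 1.77-fold above that with mannitol (log2 0.82, SE 0.44, limma adjusted p = 0.339) and slightly below that without sugars (log2 -0.38, SE 0.47, limma adjusted p = 0.685), and neither difference passed the test. In wild type alone the 3 sucrose arrays, 9.23 ± 0.40 (SD, n = 3), lay above the 3 mannitol arrays, 7.30 ± 0.29 (SD, n = 3). In rgs1 the means were 8.24 ± 0.83 with sucrose and 8.53 ± 0.38 with mannitol (SD, n = 3 each), with overlapping arrays.

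**Figure D1:**
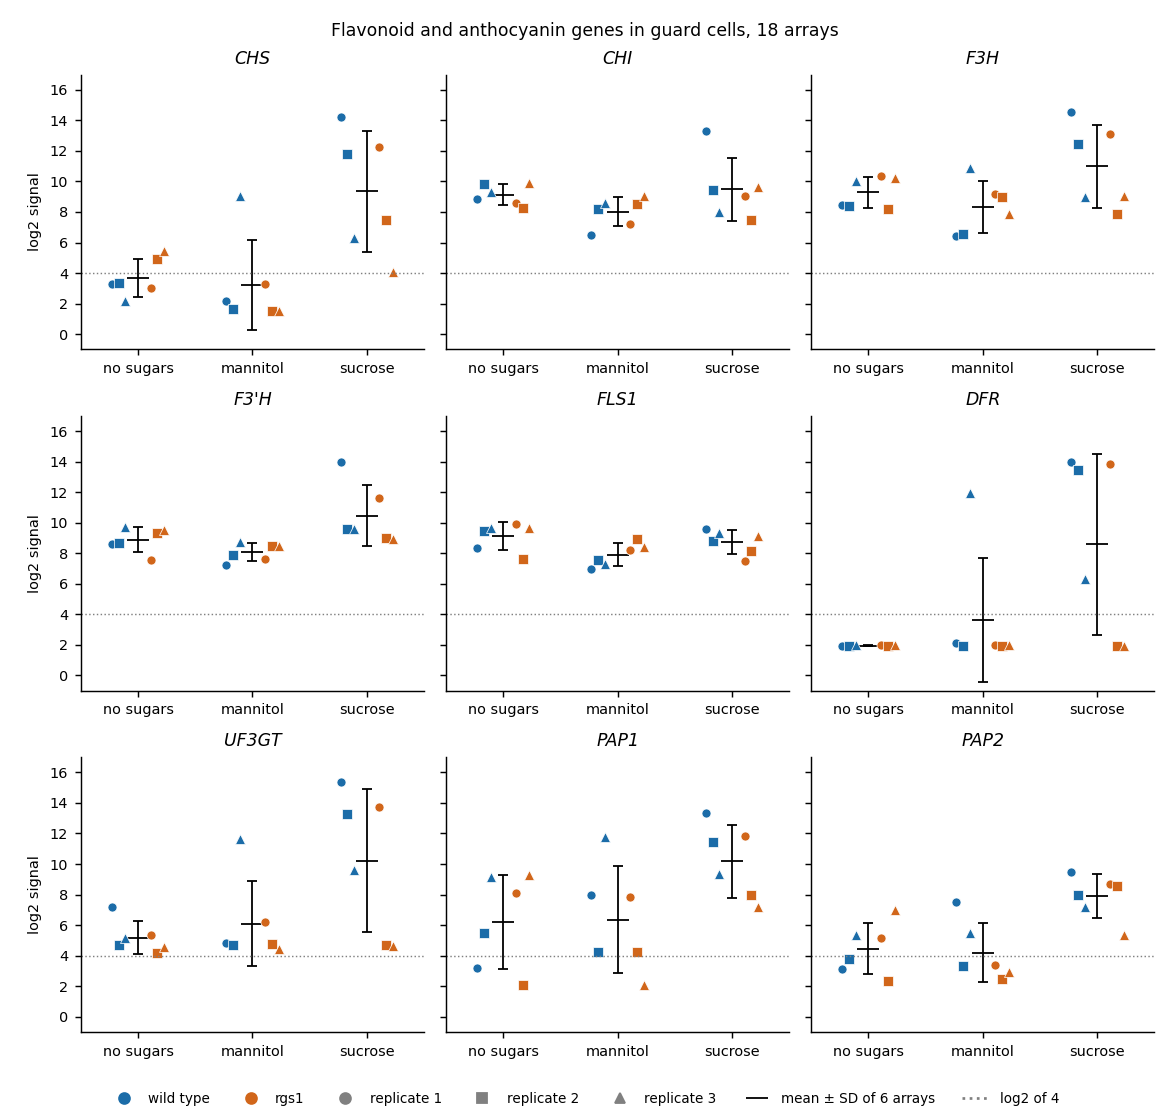
Log2 signal (vertical axis) of the 9 measured genes by treatment, with 1 point per array (blue wild type, orange rgs1; shapes for the replicate number), the mean ± SD of 6 arrays as a bar and a dotted line at 4. Within sucrose, CHS, DFR and UF3GT span from 4.05, 1.92 and 4.65 to 14.21, 14.00 and 15.34. Wild type mannitol replicate 3 stands high for the same genes, and FLS1 stays between 7.0 and 9.89.

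DFR, the first enzyme particular to anthocyanins and proanthocyanidins, was either near background or strongly hybridised, with little between. Its signal was between 1.92 and 2.14 on 13 of the 18 arrays, including all 6 without sugars, 5 of 6 with mannitol and rgs1 sucrose replicates 2 and 3. The other 5 arrays were wild type mannitol replicate 3 at 11.94, wild type sucrose replicates 1 to 3 at 14.00, 13.46 and 6.33, and rgs1 sucrose replicate 1 at 13.87. So 4 of 6 sucrose arrays, 1 of 6 mannitol arrays and 0 of 6 arrays without sugars reached 4. With only 5 arrays at or above 4, DFR was left out of the pooled limma fits, which asked for 6. The exact permutation test, two-sided, on the difference of the means gave unadjusted p = 0.106 for 4.92 against mannitol and p = 0.0606 for 6.63 against no sugars, both on the log2 scale.

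The probe set labelled AT4G22870, the locus next to LDOX, is of the type whose probes match several transcripts, so its signal cannot be assigned to LDOX or to its neighbour and it is not counted among the 9. It was at 4.51 to 4.90 on the 6 arrays without sugars. With mannitol it had 5.72, 5.03 and 12.25 in wild type and 5.09, 4.74 and 5.13 in rgs1. With sucrose it had 15.21, 14.41 and 8.99 in wild type and 14.61, 6.55 and 4.58 in rgs1. The high arrays were the same 5 as for DFR. It was 6.0 higher on the log2 scale with sucrose than without sugars (SE 1.60, limma adjusted p = 0.0515) and 4.40 higher than with mannitol (SE 1.90, limma adjusted p = 0.225), and neither passed the test.

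UF3GT, which attaches xylose to the glucose already carried by an anthocyanin, was split in the same way. Without sugars it had 7.17, 4.72 and 5.13 in wild type and 5.36, 4.15 and 4.58 in rgs1. With mannitol it had 4.85, 4.67 and 11.61 in wild type and 6.20, 4.79 and 4.41 in rgs1. Its sucrose values were 15.34, 13.30 and 9.60 in wild type and 13.76, 4.71 and 4.65 in rgs1. All 3 wild type sucrose arrays and rgs1 sucrose replicate 1 were above every array without sugars, while rgs1 sucrose replicates 2 and 3 were among the low ones. The difference was 33.0-fold against no sugars (log2 5.04, SE 1.67, limma adjusted p = 0.0989) and 17.6-fold against mannitol (log2 4.14, SE 1.89, limma adjusted p = 0.254). It passed the test against no sugars only when rgs1 sucrose replicate 3 was left out (limma adjusted p = 0.0385).

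PAP1 (also MYB75) and PAP2 (also MYB90), MYB factors that switch on the anthocyanin enzymes, were measured on most arrays. PAP1 had 3.21, 5.46 and 9.13 in wild type and 8.07, 2.06 and 9.29 in rgs1 without sugars. With mannitol it had 8.00, 4.25 and 11.75 and then 7.87, 4.26 and 2.05. With sucrose it had 13.32, 11.46 and 9.38 and then 11.83, 7.94 and 7.21. PAP1 thus varied strongly between arrays in all 3 treatments, and its sucrose arrays began at 7.21, within the range of both other groups. The difference was 14.2-fold against mannitol (log2 3.83, SE 1.48, limma adjusted p = 0.177) and 15.9-fold against no sugars (log2 3.99, SE 1.37, limma adjusted p = 0.109).

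PAP2 passed the test in both sucrose comparisons, the only one of the 9 genes to do so. Without sugars it had 3.16, 3.77 and 5.34 in wild type and 5.18, 2.37 and 7.0 in rgs1, a mean of 4.47 ± 1.69 (SD, n = 6). With mannitol it had 7.53, 3.34 and 5.51 and then 3.38, 2.47 and 2.90, a mean of 4.19 ± 1.94 (SD, n = 6). Under sucrose it had 9.50, 7.97 and 7.21 and then 8.69, 8.55 and 5.37, a mean of 7.88 ± 1.45 (SD, n = 6). The sucrose arrays overlapped the controls through rgs1 replicate 3 at 5.37 and wild type replicate 3 at 7.21, and the control arrays within their range were wild type mannitol replicates 1 and 3 and rgs1 replicate 3 without sugars. In rgs1 the sucrose arrays of PAP2 lay above all 3 mannitol arrays, as they did not in wild type.

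PAP2 was 12.9-fold higher with sucrose than with mannitol (log2 3.69, SE 0.87, limma adjusted p = 0.0387) and 10.7-fold higher than without sugars (log2 3.41, SE 0.80, limma adjusted p = 0.0311). By the exact permutation test, two-sided, unadjusted p was 0.0108 and 0.00433. The call against mannitol was kept without wild type mannitol replicate 1 or 3 or rgs1 sucrose replicate 3, and was lost on leaving out any of the other 9 arrays, at limma adjusted p from 0.0572 to 0.0918 (0.0627 without wild type sucrose replicate 1). The call against no sugars was kept without wild type replicate 3 or rgs1 replicate 1 or 3 of the no-sugar groups, or replicate 3 of either sucrose group, and was lost on leaving out any of the other 7 arrays, at limma adjusted p from 0.051 to 0.0681. With no filter on low signals, neither PAP2 nor CHS passed (PAP2 against mannitol, limma adjusted p = 0.143; CHS against no sugars, limma adjusted p = 0.158).

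Over the genes as a group, 8 of the 9 passed the filter on low signals in each sucrose comparison. Against mannitol, 1 of these 8 rose and 0 fell, with 2.36% of all 10979 tested probe sets called in either direction. Against no sugars, 2 of 8 rose and 0 fell, with 4.11% of 10937 called. The median log2 difference of the tested genes was 3.19 against mannitol and 2.56 against no sugars, beside 0.03 and 0.01 over all tested probe sets. CHS and PAP2 were at or above 4 on all 6 sucrose arrays, which alone met the filter, so their entry into the test drew on the sucrose values. The counts and medians therefore describe the tested genes only, and neither gene was called with no filter. Both comparisons use the same 6 sucrose arrays.

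Mannitol was also set against no sugars, which measures the response to the osmotic control. None of the 6 tested genes was called, where 0.275% of 10913 probe sets were, and CHS, DFR and PAP2 were left out by the filter. At an unadjusted limma p under 0.05, beside 15.7% of all tested probe sets in either direction, 2 of the 6 were lower with mannitol, FLS1 (log2 -1.20, SE 0.46, limma adjusted p = 0.233) and CHI (log2 -1.11, SE 0.45, limma adjusted p = 0.264). F3H and F3'H differed by -0.97 and -0.84 on the log2 scale, UF3GT by 0.90 and PAP1 by 0.16. None of these differences passed the test, and the arrays overlapped, with F3H on wild type mannitol replicate 3 at 10.86 above every array without sugars.

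**Figure D2:**
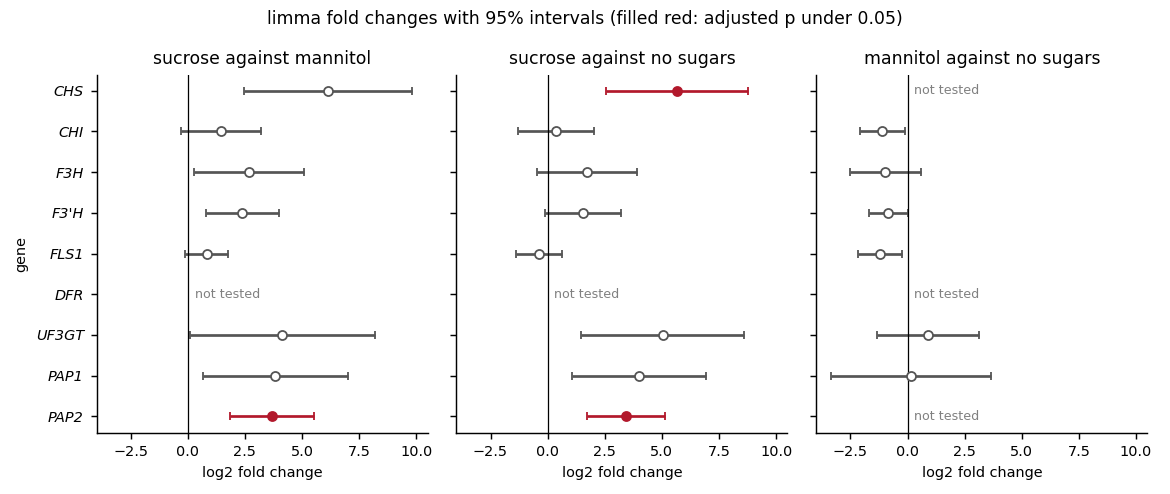
Log2 fold changes of the 9 genes (horizontal axis) in the 3 pooled comparisons, as limma estimates with 95% intervals, filled red where the adjusted p was under 0.05. PAP2 is filled against mannitol (3.69) and against no sugars (3.41), CHS only against no sugars (5.66), and no gene is filled for mannitol against no sugars.

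Within each genotype, with 3 sucrose and 3 mannitol arrays, none of the genes was called. In wild type 9 were tested, with 0.00898% of 11131 probe sets called, and the log2 differences ran from 1.93 for FLS1 (limma adjusted p = 0.395) to 6.47 for CHS (limma adjusted p = 0.533). In rgs1 8 were tested, with 0.0268% of 11201 called, and they ran from -0.29 for FLS1 to 5.85 for CHS (limma adjusted p = 0.296), with 4.62 for PAP2 (limma adjusted p = 0.141). At an unadjusted limma p under 0.05, 6 of 9 genes in wild type and 3 of 8 in rgs1 were higher with sucrose, beside 8.92% and 12.2% of all probe sets in either direction.

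The difference between the genotypes was tested itself. Over all treatments, 0 of 8 tested genes were called by limma between rgs1 and wild type and 1 had an unadjusted p under 0.05 (5.27% of all probe sets), where 0.00921% of 10853 probe sets were called, namely RGS1 alone (log2 -5.21). That 1 was UF3GT (log2 -2.64, unadjusted p = 0.0456, limma adjusted p = 0.905), and the 95% intervals reached from -3.77 to 1.42 for CHS and from -2.34 to 0.69 for PAP2. For the interaction of genotype with the step from mannitol to sucrose, 0% of 12608 probe sets passed at the adjusted threshold and 499 had an unadjusted limma p under 0.05, and of the 9 genes FLS1 alone was among these (log2 -2.22, SE 0.84, unadjusted p = 0.0178, limma adjusted p = 1). The intervals of the interaction were wide, from -7.01 to 5.77 for CHS, from -1.74 to 5.45 for PAP2 and from -9.59 to 3.32 for UF3GT.

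Most of the 9 genes were high on the same few arrays. Besides wild type sucrose replicate 1, highest for all of the 9 but FLS1, rgs1 sucrose replicate 1 was among the highest 2 of the 18 arrays for 7 of the 9 genes. The exceptions were CHI and FLS1, for both of which rgs1 no-sugar replicate 3 was among the highest 2. Wild type sucrose replicate 2 was among the highest 4 for 7 genes and wild type mannitol replicate 3 for 5.

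**Figure D3:**
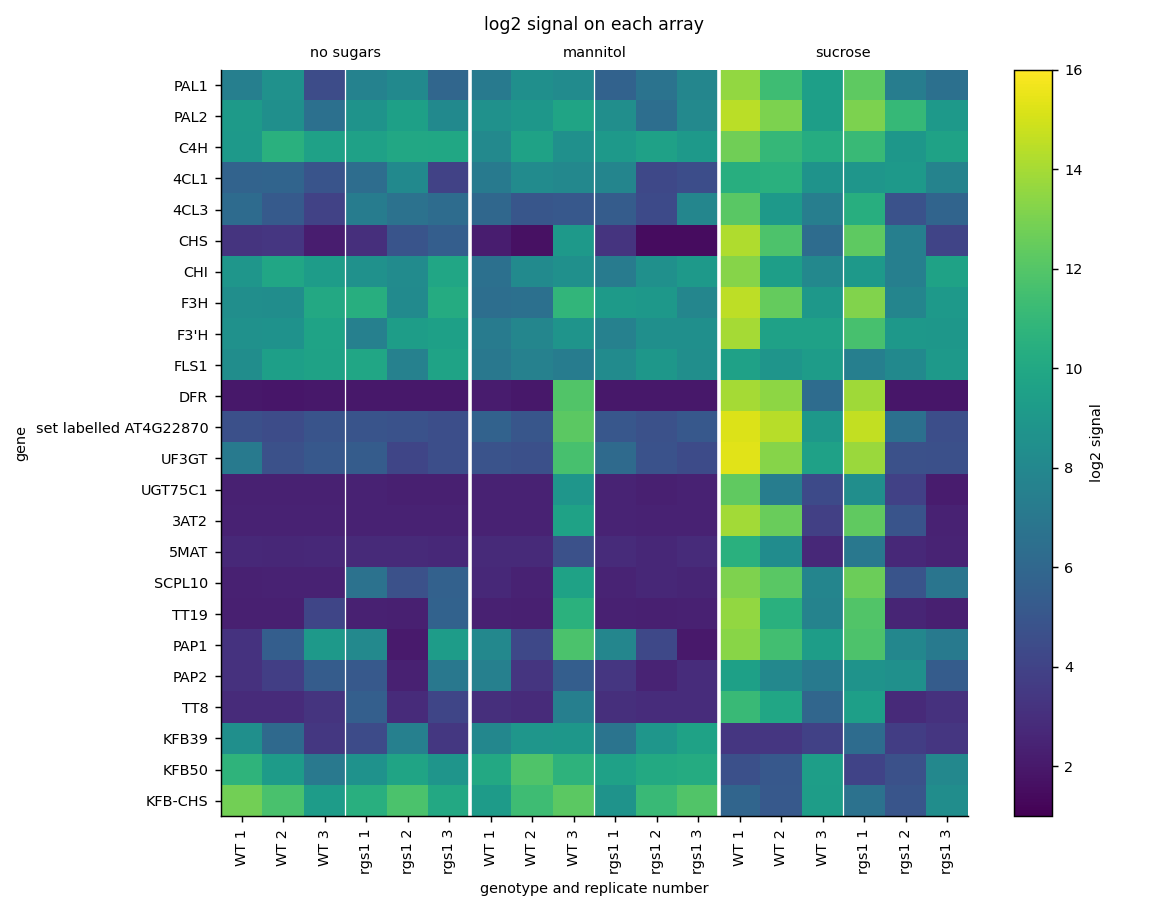
Log2 signal (colour, from dark blue at 1 to yellow at 16) of 24 genes (vertical axis) on each of the 18 arrays (horizontal axis, by treatment, genotype and replicate number). Wild type sucrose replicates 1 and 2, rgs1 sucrose replicate 1 and wild type mannitol replicate 3 are bright for the anthocyanin genes, from DFR (14.00, 13.46, 13.87 and 11.94) to the shared probe set of the acyltransferase gene 3AT2 (13.92, 12.56, 12.36 and 9.62).

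The study's methods describe a last biological replicate grown at a later time than the others. The labels do not tie it to a replicate number, and on the reading that it is the one numbered 3, the sucrose differences were also taken within replicates 1 and 2 and within replicate 3. Within replicates 1 and 2, 4 against 4 arrays, CHS differed by 9.28 on the log2 scale between sucrose and mannitol (limma adjusted p = 0.0125) and PAP2 by 4.50 (limma adjusted p = 0.0664). Within replicate 3, 2 against 2 arrays, CHS differed by -0.09, UF3GT by -0.88 and F3H by -0.35, while PAP2 differed by 2.08 and FLS1 by 1.37. Between sucrose and no sugars, CHS differed by 7.81 within replicates 1 and 2 and by 1.36 within replicate 3, and PAP2 by 5.06 and 0.12. UF3GT differed by 6.43 and 2.27 in that comparison. Other genes were below 0 against no sugars within replicate 3, with F3H at -1.12, PAP1 at -0.92, CHI at -0.79 and F3'H at -0.35. The values below 0 against mannitol hold wild type mannitol replicate 3 as 1 of the 2 mannitol arrays, and in the rgs1 pair of replicate 3 all 3 genes were higher with sucrose, at 4.05 against 1.49 for CHS, 9.05 against 7.88 for F3H and 4.65 against 4.41 for UF3GT. Set against rgs1 no-sugar replicate 3 instead, the same sucrose array was lower for CHS (4.05 against 5.46) and F3H (9.05 against 10.24). UF3GT was at 4.65 against 4.58 there. These pairs are single arrays. Leaving that mannitol array and wild type sucrose replicate 1 out together gave 6.35 for CHS (limma adjusted p = 0.0411) and 3.63 for PAP2 (limma adjusted p = 0.0704), an alternative added after the values were seen.

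**Figure D4:**
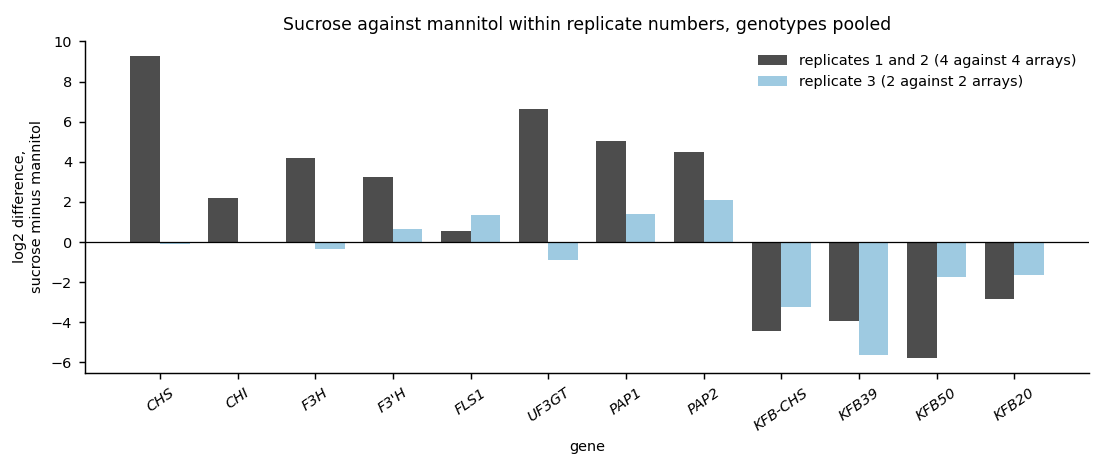
Log2 difference between sucrose and mannitol (vertical axis) for 8 flavonoid genes and 4 kelch F-box genes, within replicates 1 and 2 (dark bars, 4 against 4 arrays) and within replicate 3 (light bars, 2 against 2 arrays). CHS is at 9.28 and -0.09, PAP2 at 4.50 and 2.08, and the kelch F-box genes are below 0 in both.

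The general phenylpropanoid enzymes, which supply coumaroyl-CoA, were higher with sucrose in part. Of 8 genes on the array 6 were tested, and 3 rose against no sugars, where 4.11% of all probe sets were called, with a median log2 difference of 3.05 beside 0.01 over all probe sets, while 0 passed against mannitol (6 at an unadjusted limma p under 0.05, beside 18.7% of all probe sets), with a median of 2.60 beside 0.03. The phenylalanine ammonia-lyase gene PAL2 rose 9.52-fold against no sugars (SE 0.86 on the log2 scale, limma adjusted p = 0.0484), from 8.43 ± 1.06 to 11.68 ± 2.17 (SD, n = 6 each). The coumarate:CoA ligase genes 4CL1 and 4CL2 rose 10.5-fold (limma adjusted p = 0.0141) and 8.29-fold (limma adjusted p = 0.0407). Without sugars 4CL2 had 2.69, 4.54 and 2.69 in wild type and 2.80, 2.75 and 2.70 in rgs1, so its fold depends on the background floor. With sucrose only wild type replicate 2, at 3.65, was below 4, so the entry of 4CL2 into the test drew mainly on the sucrose values. The count of 3 therefore describes the tested genes only. PAL1, at 7.04 ± 1.54 without sugars and 10.08 ± 2.79 with sucrose (SD, n = 6 each), did not pass the test (limma adjusted p = 0.133). The call of 4CL1 was kept whichever of the 12 arrays was left out. That of 4CL2 was kept only without wild type replicate 2 of the no-sugar group, wild type sucrose replicate 1 or 2 or rgs1 sucrose replicate 3 (limma adjusted p up to 0.0831 otherwise), and that of PAL2 only without replicate 3 of either sucrose group (up to 0.107 otherwise, and 0.071 without wild type sucrose replicate 1).

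Of 17 genes that decorate or carry flavonoids, 16 were on the array, and 6 of these were at or above 4 on every array, among them the flavonol glucosyltransferase gene UGT78D2 (6.97 to 14.04) and the anthocyanin glucosyltransferase gene BGLU10 (10.89 to 12.43). SCPL10, from a family of acyltransferases whose probe set is shared between relatives, rose against no sugars by 5.52 on the log2 scale (SE 1.38, limma adjusted p = 0.0414), and this call was kept only without replicate 3 of either sucrose group, rgs1 sucrose replicate 2 or rgs1 replicate 1 of the no-sugar group (limma adjusted p up to 0.0925 otherwise, and 0.0646 without wild type sucrose replicate 1). SCPL10 was at or above 4 on every sucrose array, which alone met the filter, so its entry into the test drew on the sucrose values. UGT73C6, a flavonol glycosyltransferase whose probe set is also shared, was lower with sucrose than with mannitol by 2.23 (log2 -2.23, SE 0.48, limma adjusted p = 0.0309), and this call was kept only without replicate 1 of wild type mannitol, wild type sucrose or rgs1 sucrose or without rgs1 sucrose replicate 3 (limma adjusted p up to 0.0735 otherwise). The remaining members of the list passed neither sucrose comparison, of 8 tested against mannitol and 10 against no sugars, with list medians of 1.28 and 1.27.

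Of the other genes on this list, 4 were picked after their values were seen because they were high on arrays on which DFR was high, so their pattern is a description. TT19, the glutathione transferase needed to bring anthocyanins to the vacuole, had 13.58, 10.54 and 7.73 in wild type and 11.95, 2.53 and 2.30 in rgs1 with sucrose, and 10.58 on wild type mannitol replicate 3. The anthocyanin acyltransferase gene 3AT2 had 13.92, 12.56 and 3.86 and then 12.36, 4.91 and 2.41 with sucrose. Its probe set is of the type whose probes match several transcripts, so the signal cannot be assigned to 3AT2 alone. The malonyltransferase gene 5MAT had 10.52, 8.31 and 2.71 and then 7.01, 2.71 and 2.5, and the glucosyltransferase gene UGT75C1 had 12.36, 7.38 and 4.39 and then 8.43, 3.90 and 2.12. Each of these 4 genes was measured in wild type sucrose replicates 1 and 2 and rgs1 sucrose replicate 1 and was near background or low in rgs1 sucrose replicates 2 and 3. In wild type sucrose replicate 3, where DFR was at 6.33, 3AT2 and 5MAT were near background.

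The proanthocyanidin branch, which leads to the seed coat tannins and shares DFR and LDOX with the anthocyanins, was near background. BAN, TT12 and TT10 were below 4 on all 18 arrays, and the proton pump gene AHA10 was highest at 4.02, on wild type sucrose replicate 1. None of the 4 was tested.

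Of the regulators tested, only PAP2 passed, and PAP1 did not. Of 15 activators 12 were on the array, 4 of them tested against mannitol and 5 against no sugars, with list medians of -0.19 and 0.46. TTG1, the WD40 partner of the MYB factors, differed by -1.12 (limma adjusted p = 0.149), the flavonol regulator MYB111 by 0.69, the light-signalling factor HY5 by -0.42 and the homeodomain factor ANL2 by 0.05 between sucrose and mannitol. TT8, the bHLH partner, was at 3.59 ± 1.09 without sugars and 7.07 ± 3.62 with sucrose (SD, n = 6 each), a log2 difference of 3.48 that missed the adjusted threshold (unadjusted p = 0.019, limma adjusted p = 0.144). Of 8 repressors 3 were tested, and MYBL2, a MYB protein that opposes the activator complex, differed by -1.91 against mannitol (limma adjusted p = 0.397) and -2.36 against no sugars (limma adjusted p = 0.212), LBD37 by -0.88 and MYB4 by 1.06 against mannitol, with a list median of -0.88.

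Kelch F-box proteins mark enzymes of the pathway for degradation, and the arrays measured only the RNA of their genes. KFB01, KFB20, KFB39 and KFB50 are known to target phenylalanine ammonia-lyase, and KFB-CHS to target CHS. Of the 5 genes, 4 fell with sucrose against mannitol and 0 rose, where 2.36% of all probe sets were called, with a median log2 difference of -4.04 beside 0.03 over all probe sets. Against no sugars 4 were tested and 1 fell, where 4.11% were called, with a median of -2.46, and between mannitol and no sugars limma called 0 (2 were higher at an unadjusted p under 0.05, beside 15.7% of all probe sets), with a median of 0.56.

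KFB39 (AT2G44130) had 7.97, 8.91 and 8.93 in wild type and 6.78, 8.86 and 9.63 in rgs1 with mannitol. With sucrose it had 3.38, 3.39 and 3.93 in wild type and 6.31, 3.75 and 3.38 in rgs1, so that 5 of 6 sucrose arrays were near background and none reached the lowest mannitol array. It fell 22.5-fold (log2 -4.49, SE 0.57, limma adjusted p = 0.0026), a fold that depends on the background floor of the sucrose arrays. Every mannitol array was at or above 4, which alone met the filter, so the entry of KFB39 into the test drew on the mannitol values. Without sugars KFB39 was between these, at 5.57 ± 2.15 (SD, n = 6), with a range of 3.43 to 8.46. It was thus 2.94 higher on the log2 scale with mannitol than without sugars, which limma did not call. With sucrose it was 1.55 lower than without sugars, which was not tested. The arrays overlapped in both comparisons.

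KFB50 (AT3G59940) had 10.03, 11.87 and 10.68 in wild type and 9.61, 10.13 and 10.25 in rgs1 with mannitol. The sucrose arrays gave 4.69, 5.11 and 9.44 and then 4.00, 4.74 and 8.02, with replicate 3 of each genotype as the high arrays and still no overlap with mannitol. It fell 21.5-fold (log2 -4.43, SE 0.83, limma adjusted p = 0.0169).

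KFB-CHS (AT1G23390) had 9.22, 11.34 and 12.21 in wild type and 8.71, 11.17 and 11.92 in rgs1 with mannitol. With sucrose it had 5.90, 5.17 and 9.35 and then 6.63, 4.96 and 8.34. Without sugars it had 12.82, 11.67 and 9.31 and then 10.47, 11.73 and 10.05. Only wild type sucrose replicate 3, at 9.35, reached into the range of the other treatments. KFB-CHS fell 16.4-fold against mannitol (log2 -4.04, SE 0.82, limma adjusted p = 0.0233) and 19.5-fold against no sugars (log2 -4.28, SE 0.79, limma adjusted p = 0.0121). It is the only gene of the list called in both, but KFB39 was left out by the filter against no sugars. KFB50 and KFB20 differed by -3.05 and -1.87 on the log2 scale against no sugars, with overlapping arrays, and were not called.

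KFB20 (AT1G80440) fell 5.37-fold against mannitol (log2 -2.42, SE 0.49, limma adjusted p = 0.0219), from 12.65 ± 0.45 to 10.23 ± 1.16 (SD, n = 6 each), with no overlap, and KFB01 (AT1G15670) differed by -0.57 (limma adjusted p = 0.359). The calls of KFB39 and KFB50 against mannitol, and of KFB-CHS against no sugars, were kept whichever of the 12 arrays was left out. KFB-CHS lost its call against mannitol without replicate 2 of either genotype in either treatment or without rgs1 mannitol replicate 3, at limma adjusted p from 0.0533 to 0.064. KFB20 lost its call without wild type sucrose replicate 2 or rgs1 mannitol replicate 2 or 3, at limma adjusted p from 0.0515 to 0.0591. Within replicate 3 alone the log2 differences against mannitol were -5.63 for KFB39, -1.73 for KFB50, -3.22 for KFB-CHS and -1.64 for KFB20. All 4 differences kept their sign there. On rgs1 sucrose replicates 2 and 3, where DFR was at 1.92, KFB39 was at 3.75 and 3.38, and its highest sucrose array was rgs1 replicate 1, where DFR was at 13.87. The other kelch genes did not share this order. On rgs1 sucrose replicates 1, 2 and 3, KFB20 had 9.07, 11.24 and 10.88 and KFB01 had 11.23, 11.87 and 12.04. KFB50 had 4.00, 4.74 and 8.02 there, and KFB-CHS 6.63, 4.96 and 8.34. A relation of the kelch genes to DFR was not tested.

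**Figure D5:**
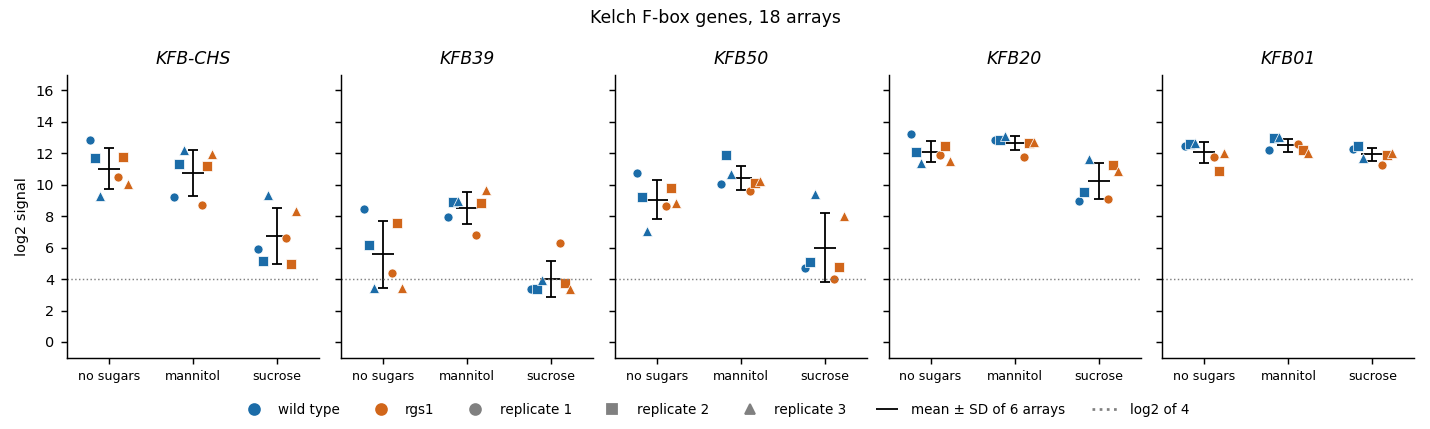
Log2 signal (vertical axis) of the 5 kelch F-box genes by treatment, with 1 point per array (blue wild type, orange rgs1; shapes for the replicate number), the mean ± SD of 6 arrays and a dotted line at 4. KFB39 falls from 8.51 with mannitol to 4.02 with sucrose and KFB50 from 10.43 to 6.0 with no overlap of arrays, while KFB01 differs by -0.57.

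The genes whose signals followed those of CHS and PAP2 most closely were looked up among 11391 probe sets, as a description over 18 arrays, 6 of each treatment. For CHS they were AT4G04750 (Pearson's r 0.957, Spearman's rho 0.95), SCPL10 (0.933 and 0.781), the probe set labelled AT4G22870 (0.933 and 0.529), PAL2 (0.922 and 0.835) and GSTF12, which is TT19 (0.913 and 0.641). Without wild type and rgs1 sucrose replicate 1 the 5 values of r were 0.933, 0.878, 0.867, 0.838 and 0.823. For PAP2 they were AT4G34555 (r 0.879, rho 0.841), RBOHD, the NADPH oxidase (0.867 and 0.847), FMO GS-OX2, a glucosinolate oxygenase (0.863 and 0.86), PAP1 (0.842 and 0.856) and AT1G16350 (0.832 and 0.911). Without the same 2 arrays these were 0.821, 0.832, 0.841, 0.776 and 0.773.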

How the data were processed

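The deposited values are log2 signals that the authors computed with GCRMA, which corrects the background of Affymetrix probe sets by probe sequence and normalizes between arrays. The labels also name Microarray Suite 5.0, Affymetrix's analysis software. The same values stood in the series' value table, so no raw intensities were used here. The number of arrays limits the precision. Of the 22746 probe sets, 22591 carry a single locus identifier. Members and gene lists were chosen with earlier results of these data known, and the reference held no sequences, so none is shown.

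The tests used limma 3.58.1 (lmFit and eBayes, R 4.3.3) and kept a probe set where its log2 signal reached 4 in a number of arrays no lower than the smaller group's size. Genotypes were pooled, 6 arrays against 6, and p-values were adjusted by Benjamini-Hochberg over all tested probe sets, with a call at an adjusted p under 0.05. Single genes were also given the exact permutation test, two-sided, in R 4.3.3. Spearman's rho was computed in scipy 1.17.1. The procedure was tested on simulated data. Alternatives were another filter or none, other scaling, batch and genotype terms, one fit of all arrays, and leaving out arrays. All 9 members are named, with each called gene of the 10 further lists (up to 4 where none was called), RGS1, and the 5 genes most correlated with CHS and PAP2; TT8, TT19, 3AT2, 5MAT, UGT75C1, UGT78D2, BGLU10 and PAL1 were named after their values were seen.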

Additional observations from a re-analysis of the deposited data

Results flagged for a closer look

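In 30 groups of 6 arrays (the 9 genes and the probe set labelled AT4G22870, by treatment), 5 had a single array whose distance from the next was over 0.625 of the group's range, Dixon's limit for 6 samples. Chance gives such a gap in about 1 in 20 groups, and the groups here share arrays. Of the 5 gaps, 4 came from wild type mannitol replicate 3: CHS was at 9.04 there, DFR at 11.94, UF3GT at 11.61 and the AT4G22870 set at 12.25 on the log2 scale. The next mannitol arrays were at 3.27, 2.14, 6.20 and 5.72. The fifth gap was CHI on wild type sucrose replicate 1, at 13.29 with the next sucrose array at 9.66.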

How the results depend on the processing

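Directions and calls were recomputed under other filters, scalings, models and subsets of arrays. The number of the 9 genes called against mannitol was 1, and became 2 at an adjusted p under 0.1, 0 with no filter, 2 with all 18 arrays in a single fit, 0 within replicate 3 alone, and 0 to 2 with arrays or a replicate number left out. Against no sugars it was 2, and became 3 at an adjusted p under 0.1, 0 with no filter, 1 with the filter at a log2 of 6, 1 with genotype as a term, 0 within replicate 3 alone, and 0 to 3 with arrays left out. In wild type it was 0, and became 1 within replicates 1 and 2 only, with 0 to 1 over omissions, and it was 0 under every alternative run for mannitol against no sugars, for rgs1, for the genotype difference and for the interaction. Over all probe sets, calls against mannitol went from 259 to 57 with no filter, where 22746 were tested, to 496 with all arrays in a single fit, to 110 within replicates 1 and 2 and to 6 without replicate 2. Against no sugars they went from 449 to 164 with no filter, 173 within replicates 1 and 2 and 27 without replicate 2. The replicate numbers did not pair the arrays: the correlation of same-numbered deviations ran from -0.199 to 0.251 over 45 pairs, and in 12 of the 45 the same-numbered correlation was above those with the other numbers. With the replicate number as a block, the members called stayed at 1 and 2, and PAP2 had limma adjusted p = 0.0327 and 0.0386. Signs turned as follows on the log2 scale, none of them in a value called in that fit. Against mannitol within replicate 3, CHS was -0.094, F3H -0.35 and UF3GT -0.88. Against no sugars within replicate 3, CHI was -0.79, F3H -1.12, F3'H -0.35 and PAP1 -0.92. With arrays or a replicate number left out of that comparison, CHI ran from -0.69 (without replicate 1) to 0.93, with -0.40 without wild type sucrose replicate 1, and F3'H from -0.032 (without replicate 1) to 2.51. Between mannitol and no sugars, omissions gave UF3GT from -0.22 (without replicate 3; -0.20 without wild type mannitol replicate 3) to 1.73 and PAP1 from -0.92 (without wild type mannitol replicate 3) to 1.39, and PAP1 was -2.31 within replicate 3. PAP1 was also below 0 without replicate 1 or 2, wild type mannitol replicate 1, wild type no-sugar replicate 1, rgs1 mannitol replicate 1 or rgs1 no-sugar replicate 2. The cause was not tested. Averaging several probe sets of a gene was not run, since no member has more than 1. Depth cannot be read from arrays, and signals below 4 limit DFR, CHS and PAP2 in the control groups.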
